A study of Mus musculus with 24 samples.

Results

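The comparison set naive wild-type CD4 T cells that had been activated for 4 days at the higher of 2 doses of anti-CD3e against the same kind of cells before activation. Its members were chosen by sample label: the 3 arrays labelled WT at 10 ng/ml and the 3 labelled WT at day 0, 6 of the 24 arrays in the series. The WT 10 ng/ml cells came from 129SvEv mice with no engineered allele named. They were cultured for 4 days under TH2 conditions with soluble anti-CD3e at 10 ng/ml and anti-CD28, both crosslinked through an anti-hamster IgG coat on the plate. The WT day 0 cells were naive CD4 T cells of the same strain without activation. Other groups, each with 3 arrays, are used only to place this comparison. They are the double knockout labelled Batf1/3DKO (DKO) at 10 ng/ml and at day 0, WT cells at day 4 with 2.2 ng/ml anti-CD3e and WT cells at day 2, for which the labels give no anti-CD3e concentration. The labels do not say whether the arrays of a group came from separate mice or cultures or whether mice were pooled, so p-values speak only to the scatter of these arrays, part of which may be technical. Anti-CD3e, anti-CD28, TH2 medium and 4 days of culture all separate the cells at 10 ng/ml from those at day 0, and their parts cannot be told apart.

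A naive T cell is a small resting lymphocyte that recirculates through lymph nodes. When its T cell receptor and CD28 are engaged it enlarges, divides, switches to aerobic glycolysis and, depending on the cytokines around it, becomes an effector subset; TH2 cells are the subset that makes interleukin-4, interleukin-5 and interleukin-13. The AP-1 family proteins Batf and Batf3 pair with Jun proteins and bind DNA jointly with Irf4, a factor whose amount is known to follow the strength of receptor signalling. The series title asks how stimulation strength is passed on through Batf and Irf4.

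Values are linear array intensities after RMA, in arbitrary units, and limma's fold changes compare geometric means, with a 95% confidence interval (CI). A change was called when its p-value, adjusted by Benjamini-Hochberg over all 19938 genes, was under 0.05. The median probe set had a mean intensity of 30.2: genes at or below it may be at background, and folds set against them come out too small. The array medians of these 6 arrays were 27.8 to 31.6, and arrays of the same group correlated at 0.971 to 0.981 across all probe sets on the log2 scale. Of the T cell genes, Cd4 and Cd3d read as the label says, while Cd3e and Cd3g fell, as given below. The summed intensity of 23 receptor signalling genes, Cd4 and Cd3d among them, was 12700 to 13250 at 10 ng/ml. At day 0 it was 16860 to 18670, without overlap. Cd4 was 804, 773 and 630.4 at 10 ng/ml, against 1003, 970.3 and 692 at day 0, and Cd3d, a chain of the receptor complex, was 1173, 1094 and 1055 at 10 ng/ml, against 961, 1180.2 and 785 at day 0; their groups overlapped or lay close together, and neither passed the test (adjusted p = 0.132 and 0.248). All 7 B cell markers had means below the median probe set in both groups, with a summed intensity of 94.4 to 100.6 at 10 ng/ml and 93.1 to 110.2 at day 0. The sum over 15 myeloid markers was 263.1 to 289.7 at 10 ng/ml and 323.5 to 355.3 at day 0. That over 7 NK and CD8 markers was 78.0 to 109.6 at 10 ng/ml and 104.5 to 140.4 at day 0. For 5 mast cell and basophil markers it was 52.8 to 62.2 at 10 ng/ml and 63.2 to 69.0 at day 0, and for 6 red cell, endothelial and stromal markers 371.6 to 401.2 at 10 ng/ml and 604.4 to 615.2 at day 0. The arrays did not overlap for the myeloid, the mast cell and basophil, and the last of these lists, all lower at 10 ng/ml, and their part in the results was not tested. Among their defining markers, by their means at 10 ng/ml and at day 0, Lyz2 (7.496 and 10.9), Itgam (8.51 and 14.1), Klrb1c (5.95 and 8.62) and Cpa3 (7.09 and 10.2) lay well below the median probe set in both groups. Klrb1c is of the NK and CD8 list, whose arrays overlapped. Not every marker was that dim. At or below the median probe set in both groups were 13 of 15 myeloid, 6 of 7 NK and CD8 and all 5 mast cell and basophil markers. The red cell, endothelial and stromal list differed from these: 2 of its 6 markers were at or below the median probe set in both groups, and most of its sum was Pecam1, which T cells also express, with means of 233 at 10 ng/ml and 459 at day 0. Because these are bulk samples, fewer cells of a type and less RNA per cell cannot be told apart.

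The activated cells differed from naive cells in 7262 of 19938 genes, 36.4% of those tested. Of these, 3677 genes (18.4%) were higher and 3585 (18.0%) lower at 10 ng/ml. The balance depended on the scaling, with 3624 higher and 2910 lower under cyclic loess and 3250 higher and 3942 lower under a further quantile normalization. Changes of at least 2-fold were more often upward, with 1645 genes (8.25%) higher and 800 (4.01%) lower. The arrays of the groups did not overlap in 9050 genes (45.4%). The median log2 change of all genes was -0.10 and cyclic loess normalization would move it up by 0.10, so small shifts in either direction carry that uncertainty.

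The largest rise was that of Il2ra, the alpha chain of the high-affinity interleukin-2 receptor. It read 3367, 3077 and 3954 at 10 ng/ml, against 9.60, 24.2 and 14.3 at day 0. All 3 activated arrays were far above the naive ones, which lay under the median probe set, and the change was 231-fold (95% CI 171 to 312, adjusted p = 4.97e-19). The 15 largest rises included the cytokines Lif, Il24, Il10 and Il21, the inhibitory receptors Lilr4b, Lilrb4a and Ctla4, and the metallothioneins Mt1 and Mt2. The others were the leucine zipper repressor Nfil3, the cathepsin inhibitor Ctla2a, the mitophagy protein Bnip3, the early response gene Ier3, and Spef2, a gene of sperm flagella. The reading of Spef2 differed among its 22 probe sets, whose log2 changes ran from -0.25 to 6.02, and fell to 2.50 as their mean. Lilr4b and Lilrb4a are near-identical neighbours, as are Mt1 and Mt2, so their probe sets may share signal.

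The largest falls included interferon-inducible genes and genes of naive T cells. Ifi203, an interferon-inducible gene of the Ifi200 family, read 16.6, 12.2 and 13.7 at 10 ng/ml, against 1221, 1096 and 897 at day 0. Every activated array lay below the median probe set and every naive array far above it, a fall of 75.7-fold (95% CI 50.9 to 113, adjusted p = 5.45e-15). Ms4a4b, a membrane protein of naive T cells, fell 70.8-fold (95% CI 45.6 to 109.8), Samd9l 62.0-fold (95% CI 46.0 to 83.5) and Ifi209 58.4-fold (95% CI 35.2 to 97.0). The other falls included Cmah and St8sia6, which modify or add sialic acids, the receptor signalling genes Tespa1, Txk and Rasgrp2, and the Schlafen genes Slfn1 and Slfn5. The rest were the interferon-inducible Rtp4, the glucocorticoid-activating enzyme Hsd11b1, the early activation marker Cd69, and Ipcef1. Cd69 read 50.2, 28.2 and 28.1 at 10 ng/ml, against 605, 566 and 497 at day 0, so it was high before culture and low after it.

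**Figure D1:**
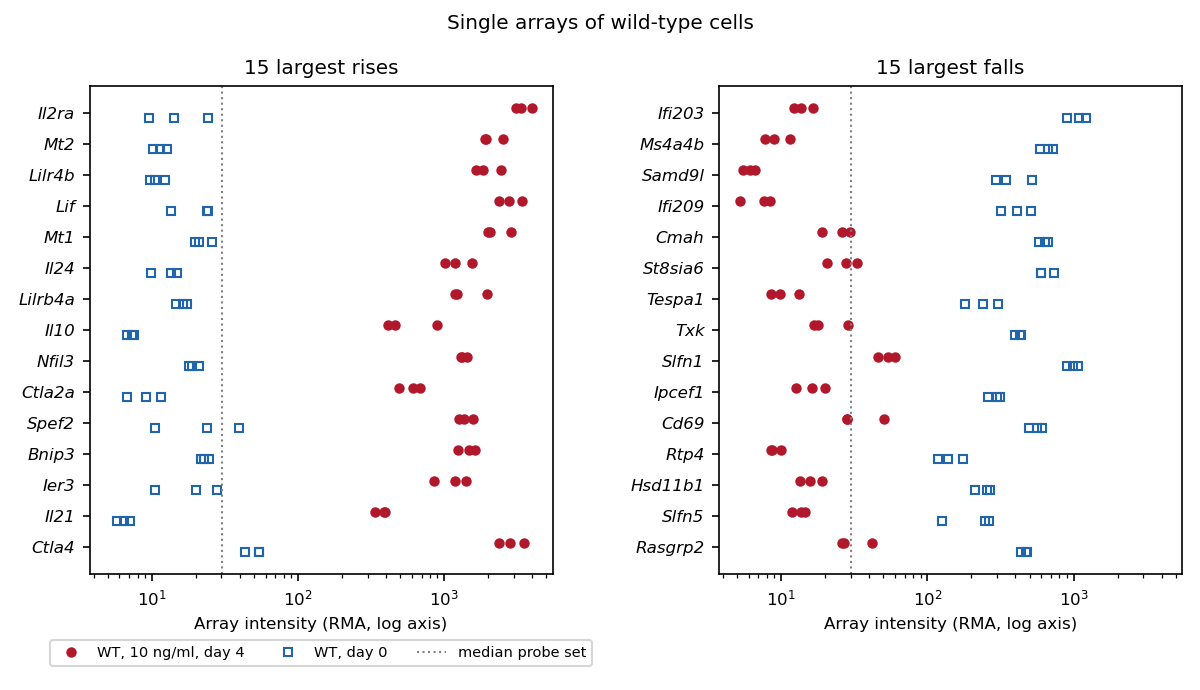
Array intensity (RMA, log axis) of the 15 genes with the largest rises (left) and the 15 with the largest falls (right), with each of the 3 WT arrays at 10 ng/ml as a filled circle and each of the 3 WT day 0 arrays as an open square; the dotted line is the median probe set at 30.2. No gene shown has overlapping groups, as the rule that chose them required, and 1 group of nearly every gene lies at or below the dotted line.

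Among transcription factors, the members of the AP-1, IRF, MAF and BACH list exchanged places: 11 of 22 rose and 9 fell. Irf4 was 1399, 1197 and 1315 at 10 ng/ml, against 38.1, 36.5 and 23.7 at day 0. The 3 activated arrays lay close together and far above every naive array, and the rise was 40.6-fold (95% CI 29.9 to 55.1, adjusted p = 8.49e-16). Batf was 1696, 1497 and 1593 at 10 ng/ml, against 114, 156 and 134 at day 0. It rose 11.9-fold (95% CI 9.53 to 14.9, adjusted p = 3.62e-15) from a level that was already above the median probe set. Batf3 was 156, 173 and 109.7 at 10 ng/ml, against 33.2, 27.8 and 30.2 at day 0. It rose 4.74-fold (95% CI 3.61 to 6.20, adjusted p = 6.82e-10), with its naive arrays around the median probe set and 1 activated array lower than the other 2. The other rises of at least 2-fold were in Atf3 (11.5-fold), a stress-induced AP-1 family member, Fosl2 (9.53-fold), Irf8 (3.26-fold) and Maf (2.47-fold), a factor for interleukin-4 and interleukin-10 genes. Fosl1 (1.43-fold), Maff (1.44-fold), Mafg (1.44-fold) and Junb rose by less, with the call of Mafg lost under 4 alternative settings and that of Fosl1 without WT 10 ng/ml replicate 3.

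Among the 9 members that fell, not all named here, were the immediate-early AP-1 genes Fosb, Fos and Jun. Fosb read 42.3, 40.4 and 41.1 at 10 ng/ml, against 188, 351 and 494 at day 0. Naive arrays were the high ones for it and for Fos, which fell 6.43-fold (95% CI 4.47 to 9.24), and for Jun, which fell 4.59-fold (95% CI 3.45 to 6.12). Jun proteins are the partners that Batf dimerises with, and the family did not move together. Junb was 279.8 ± 55.5 at 10 ng/ml and 199 ± 33.7 at day 0, a rise lost without either of WT 10 ng/ml replicates 1 and 3 and under 4 other settings. Jund fell 1.503-fold (95% CI 1.27 to 1.78). Bach2, a repressor that preserves naive and memory cells, fell 3.00-fold (95% CI 2.27 to 3.96), and Irf1, an interferon-induced factor, fell 3.19-fold (95% CI 2.54 to 4.02).

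Of 27 factors that set T cell fate, 12 rose and 5 fell. Gata3, the master regulator of TH2 cells, was 1576, 1631 and 1233 at 10 ng/ml, against 319, 382 and 289.8 at day 0. It rose 4.48-fold (95% CI 3.73 to 5.38, adjusted p = 1.15e-12), and its naive arrays were already well above the median probe set. Other factors that rose were Nfil3 (70.2-fold (95% CI 53.2 to 92.6)), Bhlhe40 (47.3-fold (95% CI 32.8 to 68.1)) and Pparg (13.9-fold (95% CI 11.3 to 17.1)). The same held for Ahr (10.3-fold (95% CI 8.11 to 13.2)), Hif1a (7.96-fold (95% CI 6.77 to 9.36)) and Prdm1 (6.67-fold (95% CI 5.10 to 8.73)), the gene of Blimp-1. Tbx21, the TH1 regulator, was 23.1 ± 1.10 at 10 ng/ml and 25.4 ± 1.03 at day 0 and Eomes 19.1 ± 1.07 at 10 ng/ml and 17.8 ± 4.80 at day 0; neither passed (adjusted p = 0.491 and 0.74). Foxp3, the regulatory T cell factor, fell 2.10-fold (95% CI 1.73 to 2.55), and the Ikaros family members Ikzf1 (2.64-fold) and Ikzf3 (2.12-fold) fell too.

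Of 34 cytokine genes measured, 18 rose and 4 fell. The TH2 cytokine Il13 was 1659.9, 1614 and 3052 at 10 ng/ml, against 47.4, 42.4 and 54.7 at day 0: 1 activated array was well above the other 2, the naive arrays lay close together, and the rise was 42.1-fold (95% CI 25.7 to 68.8, adjusted p = 4.37e-12). Il4 was 264, 342 and 386 at 10 ng/ml, against 18.7, 20.1 and 24.6 at day 0. It rose 15.5-fold (95% CI 9.37 to 25.8, adjusted p = 2.01e-09), and Il5 was 30.2, 28.9 and 75.6 at 10 ng/ml, against 10.3, 7.76 and 12.1 at day 0. It rose 4.09-fold (95% CI 2.91 to 5.75, adjusted p = 1.86e-07). The 3 genes lie in 1 cluster in the mouse genome and all rose. Lif, a cytokine of the interleukin-6 family, rose 141-fold (95% CI 98.7 to 203); Il24, of the interleukin-10 family, 98.1-fold (95% CI 59.0 to 163); and Il10 itself 77.0-fold (95% CI 53.2 to 112). Il21, best known from follicular helper cells, was 386, 335 and 396 at 10 ng/ml, against 5.82, 6.44 and 7.06 at day 0. It rose 57.9-fold (95% CI 43.8 to 76.6), while Inhba, which encodes the activin A subunit, rose 55.9-fold (95% CI 38.2 to 81.7).

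Smaller rises in the list included Tgfb3 (6.04-fold), Ebi3 (6.13-fold), a shared subunit of interleukin-27 and interleukin-35, and Penk (7.31-fold), the enkephalin precursor. Il3 was 51.9, 10.2 and 140.0 at 10 ng/ml, against 8.32, 7.06 and 9.63 at day 0; its arrays differed among themselves so that its log2 change ran from 1.48 to 3.37 when WT 10 ng/ml replicate 3 or replicate 2 was left out, and without replicate 3 the call was lost (adjusted p = 0.104). Ifng, Il17a and Csf2, cytokines of other subsets, had means below the median probe set. Ifng was 10.6 ± 1.82 at 10 ng/ml and 12.2 ± 2.30 at day 0, Il17a 15.6 ± 1.42 at 10 ng/ml and 18.7 ± 3.07 at day 0 and Csf2 12.1 ± 0.659 at 10 ng/ml and 13.8 ± 1.87 at day 0, and none of these passed the test (adjusted p = 0.468, 0.169 and 0.445). Tnf was 89.5 ± 32.4 at 10 ng/ml and 135 ± 14.1 at day 0 (adjusted p = 0.114). Cd40lg, the helper signal to B cells, fell 7.07-fold (95% CI 5.33 to 9.38, adjusted p = 2.46e-11), and Fasl (2.02-fold), Ltb (1.99-fold) and Il16 (2.03-fold) fell. Of 12 chemokines 2 rose, Ccl5 by 12.8-fold (95% CI 8.72 to 18.8) and Ccl4 by 2.22-fold, and 1 (Ccl20) fell; 10 of the 12 were at or below the median probe set in both groups, and the count of rises is close to the 18.4% of all genes.

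Cytokine receptors were split, 9 of 31 higher and 13 lower, beside 18.4% higher and 18.0% lower over all genes. Chains of the interleukin-2 and interleukin-4 receptors rose: beside Il2ra these were Il2rb (41.5-fold (95% CI 33.8 to 50.9)) and Il4ra (2.70-fold (95% CI 2.19 to 3.32)). Both chains of the interleukin-12 receptor also rose. Il12rb2 was 291, 242 and 392 at 10 ng/ml, against 12.6, 17.2 and 13.9 at day 0. It rose 20.9-fold (95% CI 15.5 to 28.2, adjusted p = 1.85e-14), and Il12rb1 rose 5.82-fold (95% CI 4.82 to 7.02). Il1r2, a decoy receptor for interleukin-1, rose 14.1-fold (95% CI 10.6 to 18.7). The receptors that naive cells use for survival or for inflammatory signals fell: Il7r 2.30-fold (95% CI 1.73 to 3.05), Il6ra 2.76-fold (95% CI 2.14 to 3.56) and its signalling partner Il6st 3.55-fold (95% CI 2.87 to 4.399). The same held for Il18r1 8.22-fold (95% CI 6.22 to 10.9), Tgfbr2 4.02-fold (95% CI 3.23 to 5.02) and Ifngr1 2.83-fold (95% CI 2.13 to 3.75). Il7r still read 946 ± 101 at 10 ng/ml, against 2171 ± 159 at day 0.

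Downstream of these receptors 11 of 17 kinases, STAT factors and feedback inhibitors rose and 2 fell. The feedback inhibitors that STAT5 induces rose most: Socs2 20.5-fold (95% CI 14.6 to 28.8) (4.36 on the log2 scale, 3.31 when its probe sets are averaged) and Cish 8.51-fold (95% CI 6.88 to 10.5). The Janus kinases moved apart. Jak2 was 1389.9, 1140.0 and 1409 at 10 ng/ml, against 263, 242 and 225 at day 0. It rose 5.39-fold (95% CI 4.59 to 6.33, adjusted p = 1.11e-14), whereas Jak1 was 677, 666 and 587 at 10 ng/ml, against 2246, 2097 and 2141 at day 0. It fell 3.37-fold (95% CI 2.85 to 3.98, adjusted p = 1.05e-11); in neither did the groups overlap. Stat5a (2.76-fold) and Stat3 (2.01-fold) rose and Stat4, which carries interleukin-12 signals, fell 2.22-fold. Stat6, the factor of interleukin-4 signalling, was 289 ± 41.1 at 10 ng/ml and 333 ± 21.2 at day 0 and did not pass (adjusted p = 0.175).

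Receptors that tune activation were split. Of 18 costimulatory receptors 8 rose and 6 fell, with a median log2 change of -0.09, and of 19 inhibitory receptors 9 rose and 3 fell. The shares over all genes were 18.4% and 18.0%. The TNF receptor family members Tnfrsf4 (OX40, 27.2-fold (95% CI 21.2 to 34.9)), Tnfrsf8 (CD30, 12.9-fold (95% CI 9.60 to 17.2)) and Tnfrsf18 (GITR, 8.67-fold (95% CI 6.94 to 10.8)) rose. Cd27, the family member of naive cells, fell 5.13-fold (95% CI 4.00 to 6.59). Ctla4, which competes with CD28 for its ligands, was 2832, 2359 and 3492 at 10 ng/ml, against 53.9, 54.6 and 43.3 at day 0. It rose 56.8-fold (95% CI 38.9 to 82.8, adjusted p = 7.08e-15). Tigit was 912, 691 and 871 at 10 ng/ml, against 33.6, 38.8 and 42.2 at day 0. It rose 21.5-fold (95% CI 15.002 to 30.9, adjusted p = 5.57e-13), and Lag3 rose 20.1-fold (95% CI 15.5 to 26.0). The receptors that share ligands with Tigit went the other way: Cd226, its activating counterpart, was 16.3, 12.1 and 14.5 at 10 ng/ml, against 178, 197 and 155 at day 0. It fell 12.4-fold (95% CI 8.74 to 17.6, adjusted p = 1.17e-11), and Cd96 fell 12.4-fold (95% CI 9.07 to 16.9). Pdcd1, the gene of PD-1, was 63.8 ± 3.90 at 10 ng/ml and 31.7 ± 8.03 at day 0, a rise of 2.05-fold (95% CI 1.49 to 2.83).

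Genes that carry the signal from the T cell receptor fell more often than they rose, 14 of 23 against 2. Trat1, an adaptor that stabilises the receptor complex, was 24.1, 22.3 and 15.5 at 10 ng/ml, against 145, 197 and 255 at day 0. It fell 9.57-fold (95% CI 6.57 to 13.9, adjusted p = 3.11e-10) to below the median probe set. The kinases Fyn (4.73-fold (95% CI 4.01 to 5.58)) and Prkcq (4.64-fold (95% CI 3.74 to 5.76)), the exchange factor Rasgrp1 (3.02-fold (95% CI 2.35 to 3.87)), the phosphatase Ptpn22 (2.79-fold (95% CI 2.10 to 3.70)) and the adaptor Lat (1.88-fold (95% CI 1.62 to 2.17)) fell. The invariant chains Cd3e (1.57-fold) and Cd3g (1.502-fold) fell by less and still read 1318 and 1251 at 10 ng/ml. Both rises were in Malt1, the protease of the NF-kB pathway (3.22-fold (95% CI 2.70 to 3.85)), and Zap70 (1.54-fold (95% CI 1.33 to 1.78)). Tox, a factor of T cell development and exhaustion, was 29.3, 31.7 and 22.0 at 10 ng/ml, against 318, 288 and 302 at day 0: all activated arrays were near the median probe set and all naive arrays well above it, a fall of 11.1-fold (95% CI 8.95 to 13.7, adjusted p = 2.34e-15). Of 12 genes of the Nr4a, Egr, NFAT and Tox families 3 rose, Egr2 by the most (1.75-fold (95% CI 1.16 to 2.62)), a call lost under 7 of the alternative settings, and 4 fell. Over all genes 18.4% rose and 18.0% fell.

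The naive and quiescence list had no riser: 19 of 22 genes fell and the others did not pass. S1pr1, through which lymphocytes exit lymph nodes, was 238, 272 and 285 at 10 ng/ml, against 2465, 2646 and 2013 at day 0. It fell 8.92-fold (95% CI 6.06 to 13.1, adjusted p = 9.39e-10), with activated arrays that were still well above the median probe set. Dapl1 (14.7-fold (95% CI 8.77 to 24.5)) and the quiescence factors Foxp1 (8.01-fold (95% CI 6.56 to 9.79)), Klf3 (7.33-fold (95% CI 5.93 to 9.06)) and Klf2 (4.37-fold (95% CI 3.25 to 5.87)) fell. The glucocorticoid-induced Tsc22d3 (4.96-fold (95% CI 3.77 to 6.53)) and the antiproliferative Btg2 (3.33-fold (95% CI 2.62 to 4.24)) fell. Ccr7, the lymph node homing receptor, fell 2.52-fold (95% CI 1.97 to 3.23) and Lef1 2.36-fold (95% CI 1.97 to 2.84).

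Of 19 chemokine and egress receptors, 3 rose and 6 fell, beside 18.4% higher and 18.0% lower over all genes. The count of rises is near that share, and 8 of the 19 were at or below the median probe set in both groups. Ccr4, the receptor typical of TH2 and skin-homing cells, was 861, 903 and 779 at 10 ng/ml, against 20.0, 22.7 and 23.2 at day 0. It rose 38.6-fold (95% CI 31.8 to 46.8, adjusted p = 3.54e-19), and Ccr8 was 291, 373 and 326 at 10 ng/ml, against 11.4, 11.5 and 13.7 at day 0. It rose 26.9-fold (95% CI 20.5 to 35.4, adjusted p = 9.03e-16). Both naive groups lay below the median probe set. Besides S1pr1 and Ccr7, Ccr9 (3.71-fold), S1pr4 (2.47-fold) and Gpr183 (1.87-fold) fell. Of 19 adhesion genes 4 rose, with Cd44 (3.32-fold (95% CI 2.69 to 4.11)) and the integrin chains Itgav (2.61-fold (95% CI 2.10 to 3.24)) and Itgb1 (2.40-fold (95% CI 1.96 to 2.94)) among them, and 7 fell. This count of rises is also close to the 18.4% of all genes, and 4 of the 19 were at or below the median probe set in both groups. The integrin chains of gut and lymphoid homing, Itga6 (5.24-fold (95% CI 4.06 to 6.76)), Itga4 (3.58-fold (95% CI 2.88 to 4.45)) and Itgb7 (3.00-fold (95% CI 2.32 to 3.88)), were among those that fell, as was Icam2 (5.45-fold (95% CI 4.11 to 7.22)).

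Every measured gene of division rose: 19 of 19 mitosis genes, with a median log2 change of 4.02, and 22 of 22 DNA replication genes, with a median of 1.67, against -0.10 over all genes. Bub1, a spindle checkpoint kinase, was 258, 224 and 359 at 10 ng/ml, against 6.45, 8.06 and 12.5 at day 0. It rose 31.7-fold (95% CI 22.8 to 44.2, adjusted p = 1.18e-14), and the proliferation marker Mki67 was 605, 558 and 656 at 10 ng/ml, against 19.8, 16.4 and 27.4 at day 0. It rose 29.2-fold (95% CI 23.8 to 35.9, adjusted p = 3.49e-18). Top2a, the topoisomerase that untangles sister chromosomes, rose by 5.32 on the log2 scale, or by 3.13 as the mean of its probe sets. Mcm6 of the replicative helicase rose 11.1-fold (95% CI 9.06 to 13.7) and the origin protein Orc1 9.05-fold (95% CI 6.52 to 12.6). Ccna2 (19.5-fold (95% CI 14.9 to 25.4)), E2f8 (8.24-fold (95% CI 6.10 to 11.1)) and Cdk6 (5.23-fold (95% CI 4.22 to 6.48)) led the cell cycle list, in which 15 of 24 rose and 1, Ccnd1, fell, a call lost under 10 of the alternative settings. The CDK inhibitor Cdkn2c rose as well (4.97-fold (95% CI 3.58 to 6.88)). Rrm2 (12.7-fold (95% CI 10.2 to 15.9)) and Rrm1 (6.85-fold (95% CI 5.42 to 8.66)), the subunits of ribonucleotide reductase, led the 10 of 18 nucleotide synthesis genes that rose, against 1 that fell.

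Promoters of the mitosis list often hold CCAAT, the letters bound by the factor NF-Y. Of 16 promoter windows matched to 16 genes of the list, 81.2% held CCAAT on either strand, against 37.4% of the 19177 windows of all 15614 tested genes that had one. The share was 84.2% in the 19 windows of the cholesterol synthesis list. The windows are RefSeq's, from 250 bases before to 50 bases after a gene's start, on GRCm38.p6, and a match is a description of the letters and not a shown site. The window of Top2a, at chr11:99024140-99024439 on the minus strand, is printed because it holds the motif 6 times; capitals mark CCAAT or its reverse complement. It and the promoters below were picked after their motifs had been counted.
Top2a: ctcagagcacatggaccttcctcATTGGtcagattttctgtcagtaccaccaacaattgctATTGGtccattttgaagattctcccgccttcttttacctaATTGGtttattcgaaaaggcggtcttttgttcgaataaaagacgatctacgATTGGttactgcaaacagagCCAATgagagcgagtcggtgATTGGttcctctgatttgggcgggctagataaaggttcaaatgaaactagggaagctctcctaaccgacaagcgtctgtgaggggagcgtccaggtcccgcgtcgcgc

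Of 16 glycolysis genes 15 rose and none fell, with a median log2 change of 2.33. Slc2a3, a glucose transporter, was 1357, 866 and 1404 at 10 ng/ml, against 58.5, 76.0 and 67.6 at day 0. It rose 17.6-fold (95% CI 12.5 to 24.8, adjusted p = 7.13e-13). Tpi1 (22.1-fold (95% CI 16.9 to 29.0)), Pgk1 (11.2-fold (95% CI 9.56 to 13.0)), Hk2 (9.35-fold (95% CI 6.71 to 13.0)) and the lactate exporter Slc16a3 (5.13-fold (95% CI 3.84 to 6.86)) rose, as did Ldha, lactate dehydrogenase A (3.37-fold (95% CI 2.65 to 4.30)). The targets of hypoxia-inducible factor (HIF) rose alongside: 15 of 18 were higher and none lower, with a median of 2.14. Egln3, a HIF prolyl hydroxylase, was 1648, 1219 and 1938 at 10 ng/ml, against 37.2, 37.8 and 37.1 at day 0, with naive arrays almost identical to each other, and rose 42.1-fold (95% CI 30.7 to 57.8, adjusted p = 1.18e-15). Ero1a, an oxidase of the endoplasmic reticulum, was 2833, 2179.6 and 3233 at 10 ng/ml, against 126, 151 and 125 at day 0. It rose 20.3-fold (95% CI 15.4 to 26.8, adjusted p = 5.80e-15), and Ndrg1 rose 19.3-fold (95% CI 14.8 to 25.2). Bnip3 rose by 5.97 on the log2 scale, or by 5.08 as the mean of its probe sets. Hif1a itself, named above, was 1759, 1799 and 1796 at 10 ng/ml, against 246, 233 and 196 at day 0.

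The letters ACGTG, the core of the HIF response element and of the E-box that MYC and USF factors bind, stood in 57.1% of 21 promoter windows of 15 HIF target genes and in 62.5% of 24 windows of 15 glycolysis genes, against 21.6% of all windows. Some of these windows belong to the same gene, where a gene has several starts. The windows of Bnip3 (chr7:138909457-138909756, minus strand, 2 matches) and Ldha (chr7:46845554-46845853, plus strand, 5 matches) are shown as 1 example from each list, with ACGTG or its reverse complement in capitals.
Bnip3: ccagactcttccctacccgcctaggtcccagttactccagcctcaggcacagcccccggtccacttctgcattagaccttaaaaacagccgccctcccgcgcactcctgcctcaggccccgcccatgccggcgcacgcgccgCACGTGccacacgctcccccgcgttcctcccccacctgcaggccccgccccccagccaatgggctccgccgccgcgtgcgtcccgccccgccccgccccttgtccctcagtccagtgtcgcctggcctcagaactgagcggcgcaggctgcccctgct
Ldha: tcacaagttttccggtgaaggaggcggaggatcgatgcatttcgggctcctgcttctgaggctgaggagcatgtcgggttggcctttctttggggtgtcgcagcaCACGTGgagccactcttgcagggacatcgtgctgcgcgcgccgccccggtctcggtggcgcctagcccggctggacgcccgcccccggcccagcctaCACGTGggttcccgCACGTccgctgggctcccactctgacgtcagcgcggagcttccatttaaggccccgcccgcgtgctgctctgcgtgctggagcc

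Lipid and amino acid supply rose too. In cholesterol synthesis 17 of 19 genes rose and none fell, led by Hsd17b7 (8.79-fold (95% CI 6.23 to 12.4)), Fdft1 (5.57-fold (95% CI 4.26 to 7.27)) and Fdps (4.96-fold (95% CI 3.52 to 6.97)). Fatty acid synthesis had 11 of 15 genes higher and 2 lower. The desaturase Scd1 was 566, 505 and 649 at 10 ng/ml, against 11.8, 7.68 and 13.9 at day 0. It rose 52.8-fold (95% CI 29.0 to 96.1, adjusted p = 5.21e-11), and its relative Scd2 was 1641, 1394 and 1659.8 at 10 ng/ml, against 57.4, 72.1 and 28.3 at day 0. It rose 31.9-fold (95% CI 22.0 to 46.1, adjusted p = 9.30e-14); the groups did not overlap in either. The genes of sterol export and uptake control went the other way, with 4 of 5 lower. These included Mylip, which degrades the LDL receptor (5.01-fold (95% CI 3.90 to 6.44)), and the exporter Abcg1 (2.45-fold (95% CI 1.90 to 3.17)). The call of Abca1 was lost under several alternative settings, among them cyclic loess (adjusted p = 0.162). Of the 5 genes, 2 were at or below the median probe set in both groups. Amino acid genes, many of them targets of Atf4, rose in 18 of 25 cases, among them Asns (7.04-fold (95% CI 5.38 to 9.21)), Psat1 (5.91-fold (95% CI 4.58 to 7.62)) and the leucine transporter Slc7a5 (4.43-fold (95% CI 3.52 to 5.59)), and 1, Slc38a2, fell 2.41-fold (95% CI 1.98 to 2.93). Transfer RNA synthetases rose in 16 of 18 cases by 1.68- to 3.05-fold.

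**Figure D2:**
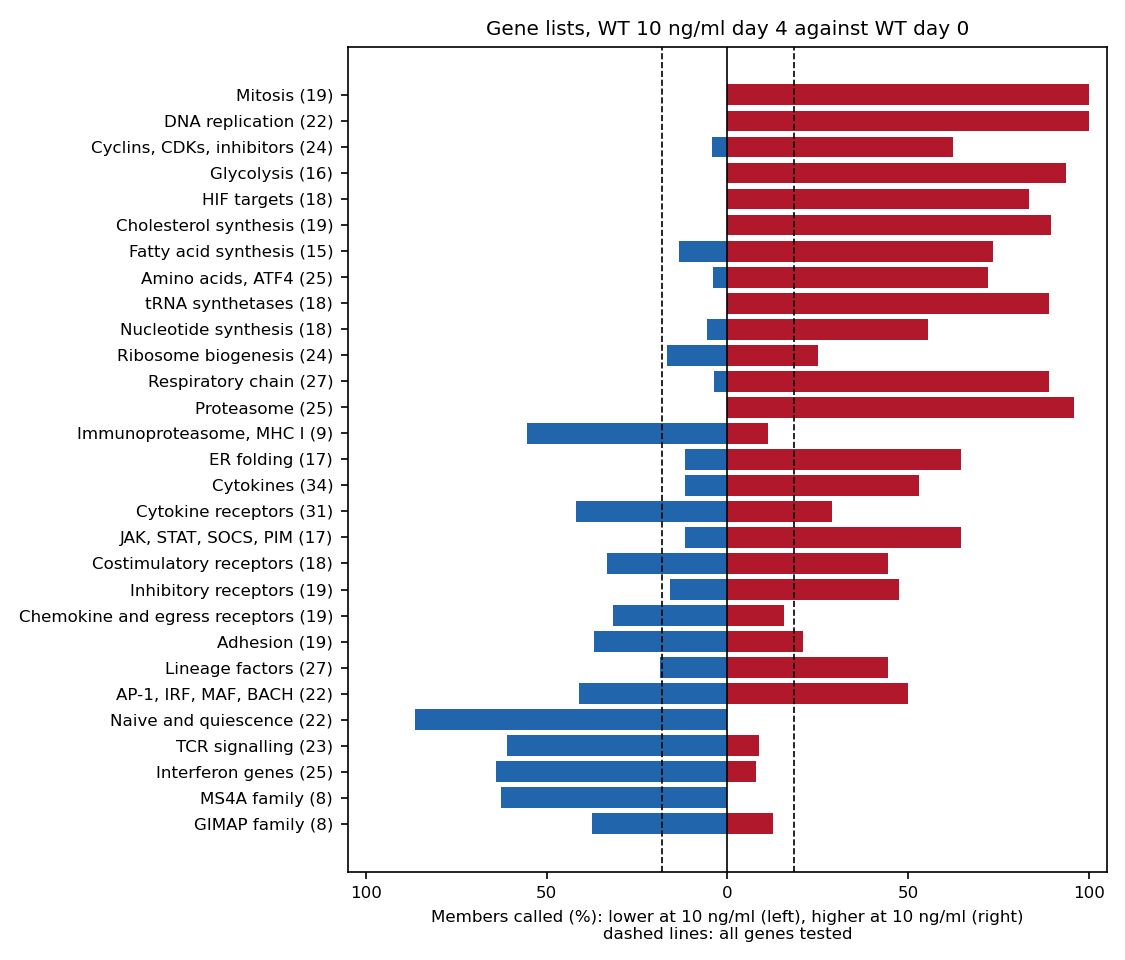
Share of measured members of each gene list called higher (bars to the right, %) or lower (bars to the left, %) at 10 ng/ml day 4 than at day 0 in WT cells; the number measured is in parentheses and the dashed lines are the shares over all genes tested, 18.4% higher and 18.0% lower. The mitosis, replication, glycolysis, cholesterol and respiratory chain lists lie nearly whole on the right, and the cell cycle and fatty acid lists less so. The naive, receptor signalling and interferon lists lie mostly on the left.

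The protein-making and protein-breaking machinery did not move as 1 block. Ribosome biogenesis was close to the background of all genes, with 6 of 24 genes higher, 4 lower and a median log2 change of 0.11. Polr1a, the catalytic subunit of RNA polymerase I, was 94.96, 77.6 and 117 at 10 ng/ml, against 188, 186 and 199.7 at day 0. It fell 2.00-fold (95% CI 1.65 to 2.43, adjusted p = 1.58e-06). Proteasome subunits, in contrast, were higher in 24 of 25 cases, with a median of 0.86; Psmb2 was 752, 778 and 814 at 10 ng/ml, against 270.0, 279 and 204 at day 0. It rose 3.14-fold (95% CI 2.59 to 3.81, adjusted p = 4.09e-10). In the immunoproteasome and MHC class I loading list 1 of 9 rose (Psmb8, 1.26-fold, a call lost under 6 of the alternative settings), and 5 fell. Those were Tapbp (2.08-fold (95% CI 1.64 to 2.63)), Tap1 (1.94-fold (95% CI 1.53 to 2.45)), Psmb10 (1.73-fold (95% CI 1.35 to 2.21)), Tap2 (1.59-fold (95% CI 1.27 to 1.99)) and B2m (1.56-fold (95% CI 1.34 to 1.82)). Respiratory chain genes rose in 24 of 27 cases by a median of 0.92, for example Cox5a (3.22-fold (95% CI 2.38 to 4.35)). Probe sets of 1 of them, Cycs, gave both directions. Of 17 endoplasmic reticulum folding genes 11 rose, with Pdia6 (5.20-fold (95% CI 4.07 to 6.63)) and the secretory factor Xbp1 (4.01-fold (95% CI 3.22 to 4.99)) first, and 2 fell, Dnajb9 by 3.77-fold (95% CI 2.60 to 5.47).

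Interferon-inducible genes were mostly lower in the activated cells, 16 of 25 with 2 higher. Ifit3, an antiviral effector, was 16.9, 26.0 and 14.1 at 10 ng/ml, against 346, 186 and 75.6 at day 0, and all activated arrays lay below the median probe set, a fall of 9.23-fold (95% CI 5.53 to 15.4, adjusted p = 8.30e-08). Samd9l was 6.12, 6.59 and 5.53 at 10 ng/ml, against 345, 520.2 and 297 at day 0, and Rtp4, a chaperone that interferon induces, fell 15.7-fold (95% CI 11.4 to 21.6). Trim30a (6.72-fold (95% CI 5.27 to 8.57)), Xaf1 (6.53-fold (95% CI 4.79 to 8.92)), Ifit1 (5.25-fold (95% CI 3.32 to 8.29)), the sensor Ddx58 (3.39-fold (95% CI 2.57 to 4.48)) and the interferon response factors Irf7 (4.85-fold (95% CI 3.75 to 6.26)) and Irf9 (2.41-fold (95% CI 1.67 to 3.49)) fell with them. The exceptions were Stat2 (1.91-fold (95% CI 1.501 to 2.43)) and Samhd1 (1.51-fold (95% CI 1.22 to 1.88)), a nucleotide hydrolase whose rise was lost in 2 alternative settings.

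The letters GAAANNGAAA, a short form of the interferon-stimulated response element that IRF proteins bind, stood in 54.2% of 24 promoter windows of 20 genes of the list, against 3.27% of all windows. The windows of Ifit3 (chr19:34583279-34583578, plus strand, 2 matches) and of Slfn5 (chr11:82951852-82952151, plus strand, 1 match), a Schlafen gene outside the list that was among the 15 largest falls (11.8, 14.6 and 13.7 at 10 ng/ml, against 249.6, 265 and 126 at day 0), are printed with the motif or its reverse complement in capitals.
Ifit3: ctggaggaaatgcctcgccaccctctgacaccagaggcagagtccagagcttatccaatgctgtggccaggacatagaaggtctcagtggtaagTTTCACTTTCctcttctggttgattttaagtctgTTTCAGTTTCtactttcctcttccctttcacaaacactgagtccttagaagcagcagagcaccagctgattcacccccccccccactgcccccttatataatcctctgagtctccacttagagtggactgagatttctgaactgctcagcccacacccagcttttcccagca
Slfn5: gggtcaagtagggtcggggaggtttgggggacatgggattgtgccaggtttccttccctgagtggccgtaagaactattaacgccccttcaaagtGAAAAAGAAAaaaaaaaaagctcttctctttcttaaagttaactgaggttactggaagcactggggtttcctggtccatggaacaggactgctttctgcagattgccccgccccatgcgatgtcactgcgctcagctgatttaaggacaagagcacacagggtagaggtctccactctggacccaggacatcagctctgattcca
In the cytokine promoters, the AP-1 letters TGANTCA stood in 20.7% of 29 windows of 26 genes, against 6.90% of all windows; they stood in 6 of the 24 windows of the interferon list as well, a larger share. The composite AP-1 and IRF letters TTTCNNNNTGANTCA stood in none of these 29 and in 0.073% of all windows, which says only that these letters are not within the short windows searched.

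Smaller families held some genes with large changes. Of 15 metal handling genes 8 rose and 2 fell. The metallothioneins Mt1 and Mt2, which bind zinc and copper, stood among the largest rises: Mt2 was 1889, 1944 and 2532 at 10 ng/ml, against 12.7, 10.1 and 11.5 at day 0 (185-fold (95% CI 121 to 282, adjusted p = 6.16e-16)) and Mt1 was 2059, 1982 and 2855 at 10 ng/ml, against 21.1, 25.9 and 19.8 at day 0 (102-fold (95% CI 61.8 to 169.8, adjusted p = 1.43e-13)). Mt3, another family member, was 50.3 ± 2.52 at 10 ng/ml and 57.3 ± 2.65 at day 0 (adjusted p = 0.308), and the zinc exporter Slc30a1, like the metallothioneins a target of the zinc sensor Mtf1, fell 1.85-fold (95% CI 1.49 to 2.31). The zinc importers Slc39a4 (3.56-fold (95% CI 2.80 to 4.52)) and Slc39a8 (2.71-fold (95% CI 2.00 to 3.67)) and the transferrin receptor Tfrc (7.33-fold (95% CI 5.53 to 9.72)) rose. Of 8 MHC class II pathway genes 3 rose and 1 fell, all by at least 2-fold, and 3 were at or below the median probe set in both groups. Over all genes 18.4% were higher and 18.0% lower. H2-Ab1, the beta chain of an MHC class II molecule, was 877, 590.3 and 866 at 10 ng/ml, against 27.7, 28.0 and 32.5 at day 0. It rose 26.1-fold (95% CI 18.0 to 37.8, adjusted p = 2.87e-13). Its alpha partner H2-Aa was 17.1 ± 2.53 at 10 ng/ml and 19.0 ± 1.88 at day 0 and the invariant chain Cd74 38.2 ± 3.68 at 10 ng/ml and 29.4 ± 2.23 at day 0, and neither passed the test (adjusted p = 0.453 and 0.193).

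The MS4A family of membrane proteins fell in 5 of 8 cases with no riser: Ms4a4b was 11.5, 8.89 and 7.71 at 10 ng/ml, against 717, 664 and 588 at day 0, and Ms4a6b fell 10.4-fold (95% CI 7.57 to 14.3) but kept a mean of 235 at 10 ng/ml. Ctla2a, an inhibitor of cysteine cathepsins, was 687, 490.2 and 608 at 10 ng/ml, against 11.6, 9.17 and 6.78 at day 0, and its paralog Ctla2b rose 11.8-fold (95% CI 8.63 to 16.04). Cathepsin S itself (Ctss) fell 7.31-fold (95% CI 5.62 to 9.51). In the cytotoxic granule list 3 of 12 rose and 4 fell, beside 18.4% higher and 18.0% lower over all genes. Of the 12, 7 were at or below the median probe set in both groups. The rises were in Srgn, the proteoglycan that packs granules, from an already high level (1992 ± 109.7 at 10 ng/ml and 567 ± 109 at day 0), Gzmb (42.2 ± 15.6 at 10 ng/ml and 14.9 ± 2.09 at day 0) and Nkg7 (43.9 ± 18.8 at 10 ng/ml and 17.6 ± 0.771 at day 0). Among the falls was Prf1, perforin (2.15-fold (95% CI 1.74 to 2.66)).

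The higher dose was next set against the lower one at the same day, both under TH2 conditions. Between 10 and 2.2 ng/ml 1523 genes (7.64%) were higher and 1499 (7.52%) lower; under cyclic loess normalization 1812 were higher and 1204 lower. WT 2.2 ng/ml replicate 3 read Irf4 well above the other 2 of its group, and without it 1326 genes were higher and 1225 lower. Across all probe sets it did not stand apart. It correlated with its group at 0.9761 to 0.9791 and replicate 2 at 0.9761 to 0.9784. Without replicate 1 there were 1289 genes higher and 1143 lower. Irf4 itself was 1399, 1197 and 1315 at 10 ng/ml, against 338, 267 and 588 at 2.2 ng/ml, a difference of 3.46-fold (95% CI 2.55 to 4.70, adjusted p = 1.17e-06). Batf was 1696, 1497 and 1593 at 10 ng/ml, against 1424, 1451 and 1652 at 2.2 ng/ml; the groups overlapped and the test was not passed (adjusted p = 0.827, ratio 1.06-fold (95% CI 0.847 to 1.32)). Batf3 differed clearly, 156, 173 and 109.7 at 10 ng/ml, against 33.7, 29.7 and 23.5 at 2.2 ng/ml, by 5.02-fold (95% CI 3.83 to 6.57, adjusted p = 2.43e-09).

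Genes that rose over day 0 differed in how they stood at the lower dose. Mt2 was 1889, 1944 and 2532 at 10 ng/ml, against 12.7, 14.9 and 11.1 at 2.2 ng/ml, 164-fold (95% CI 107 to 250.1, adjusted p = 1.46e-14) higher, and at the lower dose it was as dim as at day 0. Il13 was 1659.9, 1614 and 3052 at 10 ng/ml, against 48.6, 41.5 and 168 at 2.2 ng/ml, 28.9-fold (95% CI 17.7 to 47.2, adjusted p = 2.31e-10) higher, with 2.2 ng/ml replicate 3 the highest of its group; the log2 difference of 4.85 ± 0.34 became 5.49 without it. Il21 (14.7-fold (95% CI 11.1 to 19.5)), Lilrb4a (20.9-fold (95% CI 14.9 to 29.5)) and the transglutaminase Tgm2 (35.3-fold (95% CI 25.5 to 48.9)) were also higher at 10 ng/ml. HIF targets were higher in 15 of 18 cases and lower in none, Ero1a by 7.69-fold (95% CI 5.83 to 10.2). Mitosis genes were lower at 10 than at 2.2 ng/ml in 13 of 19 cases and higher in none, Kif11 by 2.04-fold (95% CI 1.74 to 2.40), although all of them exceeded day 0.

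Other genes were lower at 10 than at 2.2 ng/ml. Trat1 was 24.1, 22.3 and 15.5 at 10 ng/ml, against 547, 563 and 469.9 at 2.2 ng/ml, 25.9-fold (95% CI 17.8 to 37.7, adjusted p = 5.23e-12) lower. The 2.2 ng/ml arrays lay above all naive arrays too, so the doses fell on opposite sides of the naive level. Eomes was 18.0, 19.4 and 20.1 at 10 ng/ml, against 232, 186 and 182 at 2.2 ng/ml, 10.4-fold (95% CI 6.77 to 15.98, adjusted p = 1.03e-08) lower at 10 ng/ml. Tox was 29.3, 31.7 and 22.0 at 10 ng/ml, against 395, 412 and 305 at 2.2 ng/ml, 13.4-fold (95% CI 10.9 to 16.6, adjusted p = 1.29e-14) lower at 10 ng/ml. Icos (2.71-fold (95% CI 2.26 to 3.23)), Gzmb (4.55-fold (95% CI 3.08 to 6.70)), Penk (3.14-fold (95% CI 2.22 to 4.43)), Itgb3 (2.26-fold (95% CI 1.75 to 2.90)) and Ccr2 (3.86-fold (95% CI 2.28 to 6.56)) were lower at 10 ng/ml in the same way; without 2.2 ng/ml replicate 3 the log2 difference of Ccr2, -1.95 ± 0.37, became -2.73.

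**Figure D3:**
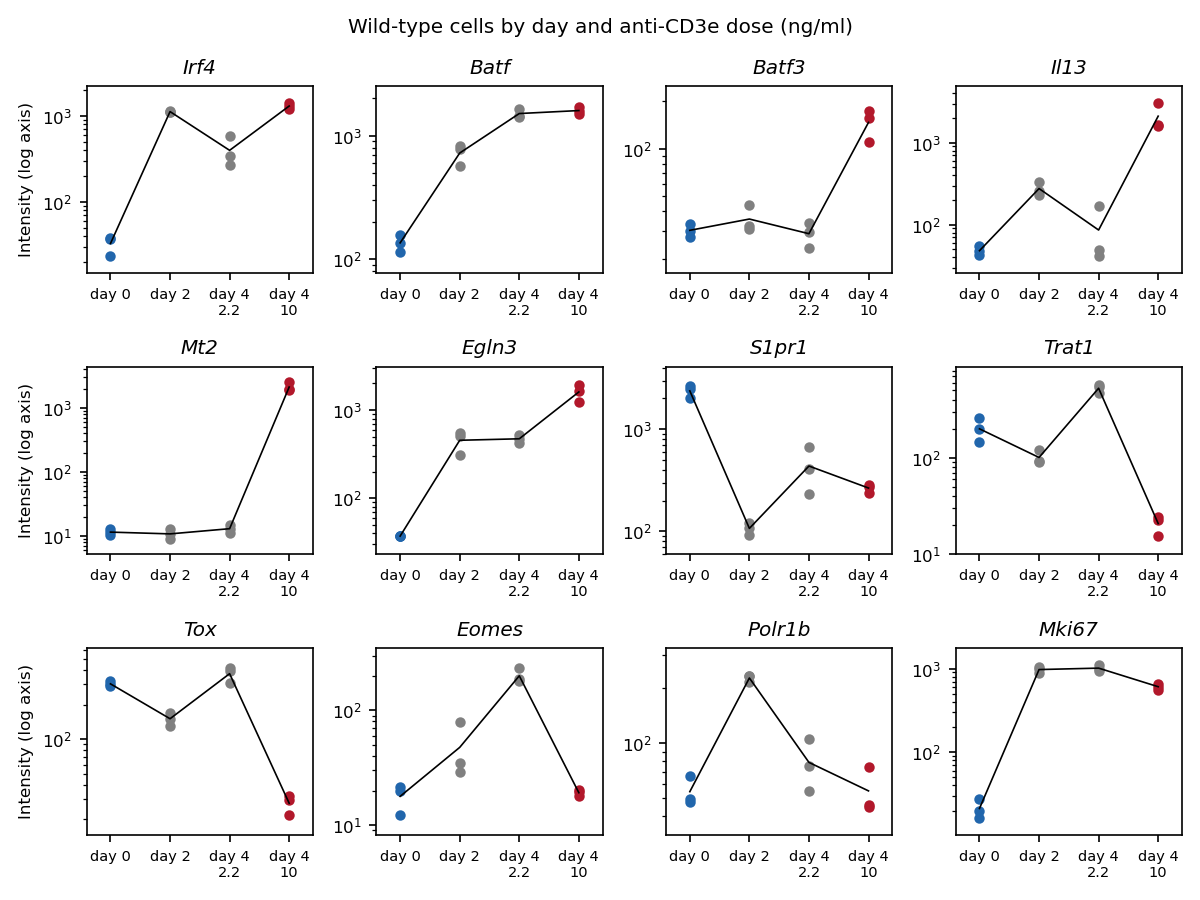
Array intensity (log axis) of 12 genes in WT cells at day 0 (blue), day 2 and day 4 with 2.2 ng/ml (grey) and day 4 with 10 ng/ml anti-CD3e (red), with 3 arrays a group and lines joining the group means; the day 2 dose is not given. Batf3 and Mt2 lie far above the naive arrays at 10 ng/ml and near them in the other groups, and Trat1, Tox and Eomes are high at 2.2 ng/ml but not at 10 ng/ml.

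Set against WT day 2, the 10 ng/ml cells had 2056 genes (10.3%) higher and 2570 (12.9%) lower. Higher genes made up 44.4% of these calls, or 55.1% under cyclic loess normalization. Ribosome biogenesis, in which 6 genes rose and 4 fell against day 0, was lower than at day 2 in 23 of 24 genes and higher in none. Polr1b, a polymerase I subunit, was 44.7, 46.2 and 74.1 at 10 ng/ml, against 231, 214 and 233 at day 2, 4.23-fold (95% CI 3.16 to 5.66, adjusted p = 3.68e-08) lower. The naive cells read 49.6, 66.2 and 47.6, which overlaps the arrays at 10 ng/ml. DNA replication (21 of 22), nucleotide synthesis (16 of 18), mitosis (14 of 19) and proteasome genes (20 of 25) were likewise lower than at day 2, with no member higher.

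Other genes were higher at 10 ng/ml than at day 2. HIF targets were higher than at day 2 in 14 of 18 cases and lower in none. Il21 was 386, 335 and 396 at 10 ng/ml, against 5.84, 6.30 and 8.29 at day 2, 55.2-fold (95% CI 41.7 to 73.0, adjusted p = 4.03e-16) higher, and Il10 was 9.82-fold (95% CI 6.78 to 14.2) higher. S1pr1 was 238, 272 and 285 at 10 ng/ml, against 108, 92.1 and 119.8 at day 2, 2.49-fold (95% CI 1.69 to 3.67, adjusted p = 0.000627) higher at 10 ng/ml, and day 2 had the lowest mean of the 4 WT states. Il2, the growth factor of the first days, was 26.4, 19.1 and 65.5 at 10 ng/ml, against 137, 122 and 381 at day 2, 5.77-fold (95% CI 3.04 to 11.0, adjusted p = 0.000131) lower. Nr4a3, a gene induced by receptor signals, was 6.55-fold (95% CI 4.66 to 9.23) lower, Trat1 4.91-fold (95% CI 3.37 to 7.15) lower and Cd69 4.49-fold (95% CI 2.96 to 6.82) lower.

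The same change was read in DKO cells, which lack Batf and Batf3, and the difference between the genotypes' responses was tested as an interaction. The log2 response was more positive in WT than in DKO cells in 773 genes (3.88%) and more negative in 526 (2.64%), whichever genotype changed by more. The targeted genes read as labelled: Batf was 43.0, 44.4 and 52.1 in DKO cells at 10 ng/ml and 30.9, 28.2 and 34.5 at day 0, and Batf3 was 33.3, 24.7 and 31.5 in DKO cells at 10 ng/ml and 27.2, 29.3 and 20.7 in DKO cells at day 0. Batf was below every WT array of the same groups, while the Batf3 arrays of DKO cells lay below those of WT cells at 10 ng/ml and overlapped them at day 0, where WT cells are near the median probe set. Irf4 was 878, 971 and 838 in DKO cells at 10 ng/ml and 32.2, 26.4 and 37.1 in DKO cells at day 0, and its response did not differ by the test (log2 difference 0.52 ± 0.30, adjusted p = 0.416).

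The 15 largest rises differed in how they read in DKO cells. Lilr4b was 7.94, 9.14 and 11.5 in DKO cells at 10 ng/ml and 12.2, 12.8 and 10.7 at day 0, and the WT response exceeded the DKO response by 7.82 ± 0.36 on the log2 scale (adjusted p = 3.38e-13). Il10 was 8.57, 8.99 and 7.44 in DKO cells at 10 ng/ml and 7.60, 9.78 and 7.99 in DKO cells at day 0, with a difference of 6.28 ± 0.37 (adjusted p = 2.15e-11). Lif lay between: it was 187, 359 and 307 in DKO cells at 10 ng/ml and 17.7, 19.5 and 18.0 in DKO cells at day 0, and the responses differed by 3.25 ± 0.36 (adjusted p = 8.03e-07). Il2ra, the largest rise, was 1429, 1614 and 1427 in DKO cells at 10 ng/ml and 10.4, 10.5 and 13.0 in DKO cells at day 0, and the log2 difference of 0.81 ± 0.30 missed the threshold (adjusted p = 0.127), though it passed when WT day 0 replicate 2 was left out (adjusted p = 0.00235). For Nfil3 the difference was 0.67 ± 0.27 (adjusted p = 0.181) and for Bnip3 1.02 ± 0.37 (adjusted p = 0.123, or 0.00616 with only the compared groups in the fit).

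By list, the log2 response was more positive in WT cells for 9 of 34 cytokines, 5 of 19 inhibitory receptors, 10 of 31 cytokine receptors and 9 of 27 lineage factors; a more positive response can also be a smaller fall. It was more negative for 6 of the cytokines, among them Csf1 (-2.89 ± 0.30), Tnfsf11 (-1.87 ± 0.25) and Ebi3 (-1.36 ± 0.31), and for 1 gene of each of the other lists. In glycolysis 1 of 16 genes, in cholesterol synthesis 1 of 19 and in mitosis 0 of 19 had a more positive response in WT cells, and 0, 4 and 7 a more negative one. These shares stand beside 3.88% and 2.64% over all genes. Among the falls, Tox was 393, 363 and 315 in DKO cells at 10 ng/ml and 290.1, 334 and 366 at day 0, and its fall was larger in WT cells by a log2 difference of -3.58 ± 0.21 (adjusted p = 2.15e-11). Samd9l, in contrast, was 9.78, 9.33 and 9.16 in DKO cells at 10 ng/ml and 466, 571 and 452 in DKO cells at day 0, and the difference of -0.24 ± 0.29 did not pass (adjusted p = 0.767).

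**Figure D4:**
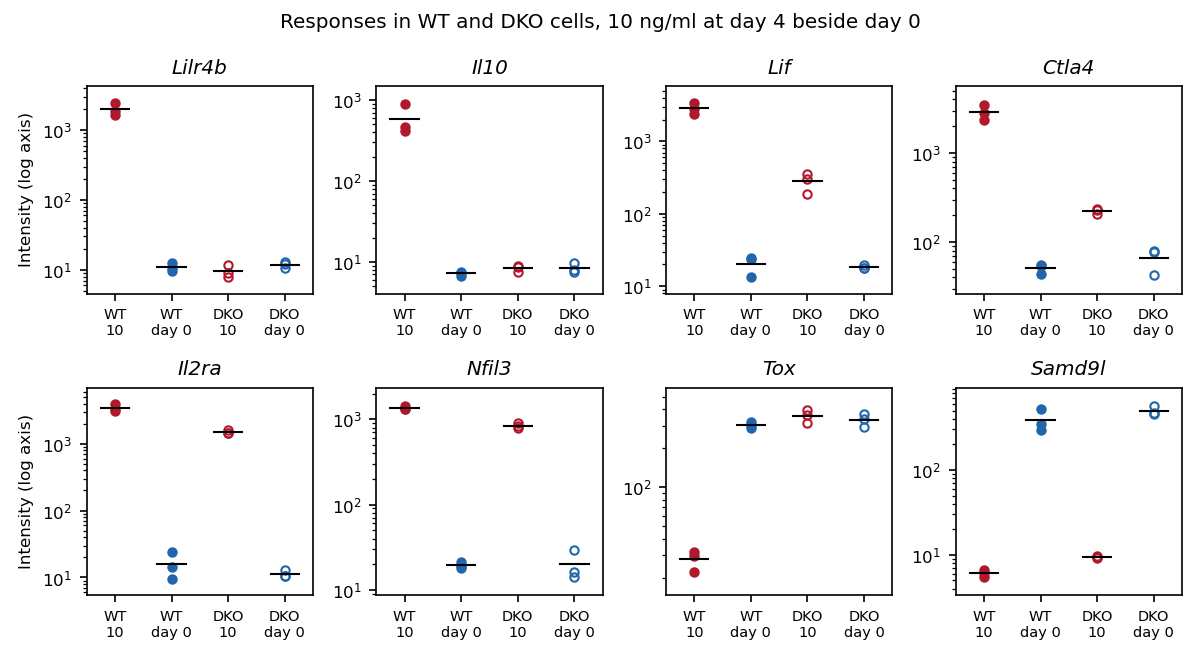
Array intensity (log axis) of 8 genes in WT cells at 10 ng/ml and day 0 (filled) and in DKO cells at 10 ng/ml and day 0 (open), 3 arrays a group, with bars at the group means. Lilr4b and Il10 stay at the day 0 level in DKO cells, Lif and Ctla4 rise partway, Il2ra and Nfil3 rise in both genotypes, Tox falls only in WT cells and Samd9l falls in both.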

How the data were processed

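The series holds 24 mouse gene arrays. The deposited intensities are RMA values on a linear scale, per the submitters' processing notes. They lay between 1.95 and 14644.9 and were put on the log2 scale for testing. RMA includes quantile normalization, which removes changes that most genes share. Arrays were grouped by sample title. Of 35556 probe sets, 21789 had exactly 1 symbol in the platform annotation and were used, 1621 had more and 12146 had none listed; 21698 of those used matched RefSeq (GRCm38.p6). For 999 genes with several probe sets the brightest was taken, and 7 of these had probe sets called in both directions, which left 19938 genes.

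One limma 3.58.1 model in R 4.3.3 estimated the 8 group means from all 24 arrays together (16 residual and 7.49 prior degrees of freedom), so all groups share 1 spread. The comparisons were WT at 10 ng/ml against WT day 0, WT at 2.2 ng/ml and WT day 2, and the interaction with genotype. Same-numbered arrays of WT at 10 ng/ml and day 0 deviated from their group means with correlations of 0.023, -0.096 and -0.054. No pairing by number was seen in these values, and none was used in the main fit. Weak correlations cannot tell whether same-numbered arrays shared a mouse or culture, which the labels do not say. On data simulated for the day 0 comparison over 19938 genes, the test found 14 of 50 genes shifted by 0.5 (log2), 46 of 50 shifted by 1, and all 50 at 2 and at 3, with 10 of 170 calls on unchanged genes. The data gave 7262 calls, so the same adjusted p allows a larger raw p there. The simulated recovery of small shifts therefore need not hold for the data.

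The members, 49 gene lists (854 genes, 796 measured, the rest not analysed here) and the tests were chosen with earlier results of these data known, so list counts are no independent support. The rule for naming genes took Batf, Batf3 and Irf4 plus the 15 top rises and falls among called genes with non-overlapping arrays, up to 6 list members with the smallest p, and in the other comparisons these and the 8 largest differences each way; gene models, small RNAs, antigen receptor gene segments and genes of X inactivation or the Y chromosome were skipped. Other list members named were chosen after their values were seen, as were Slfn5 and the printed promoters. Array number limits the precision. The labels name no scan date or batch. The alternatives changed the gene set (no dim genes, all probe sets, or probe sets averaged), the scaling (cyclic loess or a further quantile step) or the fit (compared groups only, replicate number as block, robust variance trend, weighted arrays, or 1 array dropped at a time).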

Additional observations from a re-analysis of the deposited data

Results flagged for a closer look

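The following genes changed differently in WT and DKO cells between day 0 and 10 ng/ml by the interaction term of the limma fit; values are the WT log2 response minus the DKO log2 response with their SE, and adjusted p-values ran from 3.38e-13 to 0.00613. The targeted genes themselves stood out, Batf by 3.00 ± 0.22 and Batf3 by 2.03 ± 0.27. Some cytokine genes had the more positive response in WT cells: Il10 (6.28 ± 0.37), Il21 (5.97 ± 0.28), Inhba (5.89 ± 0.37), Il24 (6.67 ± 0.50) and Lif (3.25 ± 0.36). So did the receptors Lilr4b (7.82 ± 0.36), Lilrb4a (6.85 ± 0.34) and Ctla4 (4.03 ± 0.37), and Ctla2a (6.32 ± 0.34), Mt2 (6.64 ± 0.42), Mt1 (4.90 ± 0.50), Spef2 (5.20 ± 0.59) and Ier3 (2.24 ± 0.48). The value of Spef2 was 2.28 when its probe sets were averaged. Of all 34 cytokines measured, 9 had a more positive and 6 a more negative response.

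The response was more negative in WT cells for genes of receptor signalling and early activation, Tespa1 (-2.02 ± 0.38), Txk (-1.75 ± 0.40), Trat1 (-3.64 ± 0.37), Ipcef1 (-2.70 ± 0.42) and Cd69 (-2.58 ± 0.41), for the factors Tox (-3.58 ± 0.21) and Nr4a3 (-2.91 ± 0.34), for the interferon-linked, Schlafen and MS4A genes Ifi203 (-4.11 ± 0.39), Ifi209 (-2.43 ± 0.50), Slfn1 (-2.29 ± 0.31) and Ms4a4b (-1.90 ± 0.43), and for Cmah (-1.62 ± 0.28), St8sia6 (-2.40 ± 0.31), Dapl1 (-3.75 ± 0.51), Csn2 (-6.21 ± 0.43), Tex35 (-3.92 ± 0.35) and Qser1 (-3.83 ± 0.61). By list, 5 of 23 receptor signalling genes had a more negative and 3 a more positive response. Of 25 interferon genes 2 were more negative and 7 more positive, and of 5 Ifi200 genes 3 and 0. Over all genes 2.64% were more negative and 3.88% more positive. A more negative value can be a larger fall in WT cells or a rise in DKO cells that WT cells did not show. For Csn2, a casein gene, the means were 15.1 in WT cells at 10 ng/ml and 16.3 at day 0, beside 1092 and 15.3 in DKO cells. For Nr4a3 they were 36.1 and 62.0 in WT cells, beside 261 and 58.8 in DKO cells.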

How the results depend on the processing

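Gene counts kept within 1.5 times of their values under every alternative except 1: between 10 and 2.2 ng/ml, 981 genes were lower when only the compared groups entered the fit, against 1499 in the fit of all groups. Leaving out 1 array at a time gave 3242 to 3565 genes higher and 2751 to 3465 lower against day 0, with 1552 to 1761 and 789 to 831 of at least 2-fold. Against 2.2 ng/ml it gave 1131 to 1439 higher and 1143 to 1476 lower, against day 2 1667 to 1987 and 2094 to 2356, and for the genotype interaction 627 to 769 and 399 to 518. With the replicate number as a block there were 3645 genes higher and 3527 lower against day 0, 1514 and 1490 against 2.2 ng/ml, 2061 and 2579 against day 2, and 771 and 521 for the interaction. Whether the numbers pair the samples is not given by the labels. Against day 0, counts of called members in the lists moved by more than 1.5 times in 95 cases and did not in 1375. The BCL2 and death receptor genes that fell, 0 in the fit of all groups, numbered up to 5 under the alternatives, the HIF targets that fell, 0, up to 1, and the ribosome biogenesis genes that rose, 6, as few as 2. Of 564 list or named genes called against day 0, 486 stayed called in the same direction under all alternatives that tested them and 78 were lost under 1 or more. Signs turned in the log2 change of Psmb8 under quantile normalization (-0.008), of Cd3d under cyclic loess (-0.12) and quantile normalization (-0.18), and of Eomes without WT day 0 replicate 3 (-0.10, with up to 0.29 when other arrays were left out); the cause was not tested. Genes near or below the median probe set, 30.2, have folds compressed by background.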

Other observations

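Feedback and survival genes added detail to the comparison with day 0. Of 15 MAP kinase phosphatases and Sprouty or Spred inhibitors, 7 were higher at 10 ng/ml and 3 lower. Dusp16 rose 6.24-fold (95% CI 5.04 to 7.72), Dusp4 5.38-fold (95% CI 3.88 to 7.46) and Dusp6 5.25-fold (95% CI 3.86 to 7.15), whereas Dusp1 was 189.6, 238 and 213 at 10 ng/ml, against 1079.7, 1153 and 1279 at day 0 and fell 5.49-fold (95% CI 4.52 to 6.67, adjusted p = 3.58e-13), and Dusp10 fell 3.82-fold (95% CI 2.61 to 5.60). In the NF-kB list 2 of 11 rose, close to the 18.4% over all genes, Bcl3 by 5.05-fold (95% CI 4.14 to 6.15), and 3 fell, Nfkbiz by 3.49-fold (95% CI 2.77 to 4.38). Of 16 genes of the BCL2 family and death receptors 3 rose and none fell, a share of rises close to the same background: the pro-death Bak1 (3.08-fold (95% CI 2.46 to 3.85)) and the protective Bcl2l1 (2.53-fold (95% CI 2.01 to 3.19)) and Birc3 (1.89-fold (95% CI 1.59 to 2.25)).

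Chromatin enzymes moved both ways, with 7 of 13 higher and 4 lower. Uhrf1, which recruits the maintenance DNA methylase, rose 6.41-fold (95% CI 4.74 to 8.68) and Ezh2, the histone methylase of Polycomb, was 518, 506 and 450.5 at 10 ng/ml, against 111, 117 and 97.5 at day 0, a rise of 4.54-fold (95% CI 3.86 to 5.32, adjusted p = 8.45e-14). Among the falls were the DNA demethylases Tet1 (2.54-fold (95% CI 1.66 to 3.91)) and Tet3 (2.93-fold (95% CI 2.34 to 3.67)), and Ezh1 (1.56-fold (95% CI 1.28 to 1.91)). Both Uhrf1 and Ezh2 were lower at 10 than at 2.2 ng/ml, by 1.61-fold (95% CI 1.19 to 2.18) and 1.67-fold (95% CI 1.42 to 1.96). In the Gimap family of T cell GTPases Gimap7 alone rose (3.25-fold (95% CI 2.61 to 4.04)), with 3 of 8 lower, beside 18.4% higher and 18.0% lower over all genes. The polyamine oxidase Smox was 331, 268 and 293 at 10 ng/ml, against 34.4, 32.0 and 28.2 at day 0, a rise of 9.41-fold (95% CI 7.01 to 12.6, adjusted p = 4.20e-12), and it was 8.28-fold (95% CI 6.17 to 11.1) higher at 10 than at 2.2 ng/ml. In the Myc network Myc rose 1.88-fold (95% CI 1.56 to 2.26) and its partner Max fell 1.65-fold (95% CI 1.35 to 2.03), with Mxi1, an antagonist, up 5.39-fold (95% CI 4.11 to 7.06). Cytosolic chaperones rose in 9 of 16 cases and fell in 1, Tcp1 by the most among the risers (2.66-fold (95% CI 2.21 to 3.22)).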
